A study of Homo sapiens with 6 samples.

Results

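To describe the acute-phase and inflammatory secreted protein genes of glioblastoma cells under TNF-α, 10 genes chosen by name were examined among the 58735 genes of the expression table. They were PTX3, LCN2, SAA1, SAA2, SERPINA3, TNFAIP2, SDC4, LGALS3BP, HP and ORM1, and all 10 were present. RNA-seq was performed on U251 cells, an established human glioblastoma line. The negative control (NC) group received sterile deionized water and the TNF-α group received recombinant human TNF-α at 10 ng/mL, each for 24 h, with 3 biological replicates per group. A single line, dose and time point were therefore compared. Values are FPKM, the reads of a gene divided by its length in kilobases and by a scaled library size. The length is that of the merged annotated exons. In some of the 10 genes it exceeds the longest coding transcript, as in HP (5405 against 1482 bases). Levels can therefore be compared between genes only approximately. All gene positions are on GRCh38.

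Acute-phase proteins are plasma proteins whose synthesis rises in inflammation, mainly in the liver and under the control of IL-6, IL-1 and TNF-α through the STAT3, C/EBP and NF-κB transcription factors. Serum amyloid A, haptoglobin, orosomucoid and α1-antichymotrypsin belong to this class, and PTX3 is a pentraxin made locally by stromal, endothelial and myeloid cells. In the brain, LCN2, SERPINA3 and PTX3 are also known as genes of reactive astrocytes. TNFAIP2 and SDC4 are not secreted in the usual sense. TNFAIP2 is an intracellular protein first found as a TNF-induced transcript, and SDC4 is a membrane proteoglycan whose extracellular part can be shed.

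Each library held between 31992167 and 37897044 reads in genes. TNF-α replicates 2 and 3 stood apart from the rest. In these libraries only 16.6% and 17.9% of reads fell in genes over 8 kb long, where the 4 others had 28.8% to 29.1%, and the share of ribosomal protein genes was 8.11% and 6.96%, where the 4 others had 2.90% to 3.22%. The library size by which the authors divided was 0.693 and 0.759 of the reads in genes in TNF-α replicates 2 and 3, where the 4 others had 0.925 to 0.959, which raises every FPKM of these 2 libraries relative to its reads. Both belong to the TNF-α group, so that results are also given without them and without TNF-α replicate 1. Of the 8 astroglial and glioma markers examined, 7 had a mean of at least 1 FPKM, including VIM (343 ± 18.7 FPKM in NC and 753 ± 283 in TNF-α, mean ± SD, n = 3) and SOX2 (62.0 ± 3.87 and 36.9 ± 18.5 FPKM). S100B was the exception and did not exceed 0.168 FPKM. The summed level of the 8 was 732 to 802 FPKM in NC and 907 to 1284 in TNF-α, and the largest rise was that of VIM. The means of NES and CD44 were also higher in TNF-α. Those of TNC (127 and 103 FPKM in NC and TNF-α), SOX9 (44.9 and 33.5), GFAP (8.24 and 2.19) and SOX2 were lower, so these markers did not rise as a set. All 8 hepatocyte markers were below 1 FPKM in every library (summed level 0.142 to 0.435 in NC and 0.236 to 0.767 in TNF-α), with AHSG, TTR, APOB and APOC3 at 0 reads in all 6. All 8 myeloid markers were also below 1 FPKM (0.440 to 0.530 and 0.223 to 0.334), with PTPRC and TYROBP at 0, as were all 5 neutrophil markers (up to 0.0335 and 0). The summed epithelial markers were 12.9 to 15.4 in NC and 10.3 to 35.3 in TNF-α, mostly KRT18, and the summed endothelial markers were 6.27 to 6.80 and 2.17 to 6.03, mostly KDR. The part of these differences in the results below was not tested.

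The 10 genes fell into 3 ranges of expression. LGALS3BP, SDC4, TNFAIP2 and PTX3 were clearly expressed in both groups, SAA1 exceeded 1 FPKM only in the TNF-α libraries, and SAA2, LCN2, SERPINA3, HP and ORM1 stayed below 1 FPKM in all 6 libraries. In the NC group the order was LGALS3BP (527 ± 43.5 FPKM, n = 3), SDC4 (45.5 ± 0.797), TNFAIP2 (33.5 ± 2.50) and PTX3 (6.54 ± 0.340), and the ranges of neighbours in this order did not overlap. The remaining 6 genes were at or below 0.139 FPKM in every NC library and each overlapped its neighbour in rank. In the TNF-α group the first 4 kept this order, followed by SAA1 (2.99 ± 1.65 FPKM) and SAA2 (0.221 ± 0.0884 FPKM), again without overlap between neighbours. LCN2, SERPINA3, HP and ORM1 came last, and from SAA2 on each overlapped its neighbour.

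**Figure D1:**
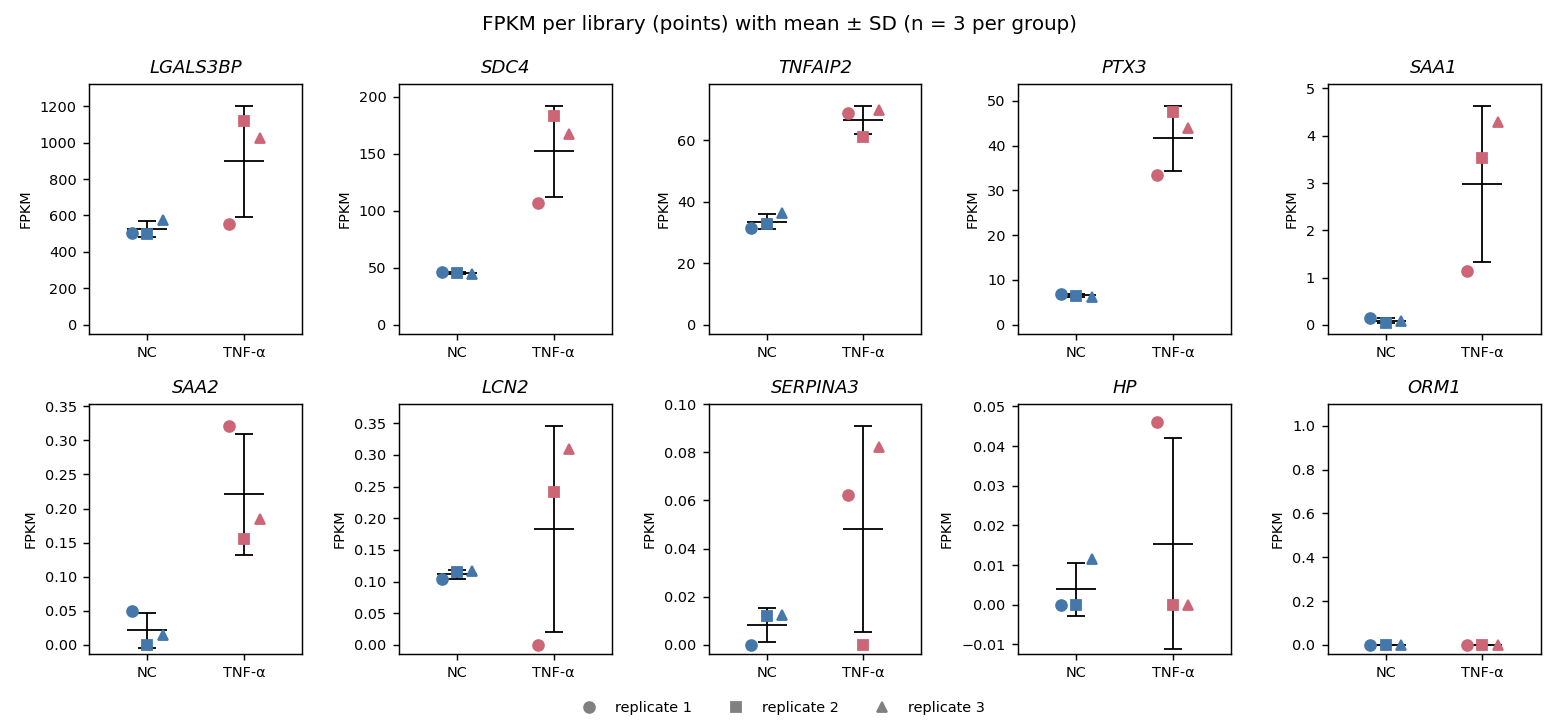
FPKM (vertical axes, linear, a separate scale in each panel) of the 10 genes in the NC (blue) and TNF-α (red) libraries, with a point for each library, a marker shape for each replicate number, and a black bar for the mean ± SD (n = 3 per group). SDC4, TNFAIP2, PTX3, SAA1 and SAA2 do not overlap between the groups, while in LGALS3BP TNF-α replicate 1 lies among the NC libraries.

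Whether TNF-α changed these genes was tested with limma over the 12136 genes that reached 1 FPKM in 3 or more libraries. An adjusted p under 0.05 was reached by 3 of the 10 genes, PTX3, SDC4 and TNFAIP2, and all 3 were higher in the TNF-α group. Over all genes tested, 1.01% passed in either direction, 0.717% higher and 0.297% lower. The groups did not overlap in 4 of the 5 tested genes, each of them higher under TNF-α, as they did not in 14.8% of all tested genes that were higher and 15.3% that were lower (30.1% in all). The test covered 5 of the 10 genes, and SAA1 was tested only because of its TNF-α values. In bulk RNA, a change in the number of expressing cells and a change in RNA per cell cannot be told apart.

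PTX3 (ENSG00000163661, chromosome 3, 157436789 to 157443628, plus strand) encodes the long pentraxin that binds complement factors and microbial surfaces. It had 6.92, 6.44 and 6.26 FPKM in NC replicates 1 to 3 and 33.5, 47.5 and 44.0 FPKM in TNF-α replicates 1 to 3. Every TNF-α library was thus above every NC library, and the smallest TNF-α value was that of replicate 1. The log2 fold change was 2.49 (standard error, SE, 0.17, adjusted p 0.00316), and it was the 23rd largest of the 87 genes that rose. Among the tested genes, its group mean lay at the 48.4th percentile in NC and at the 87.7th percentile in TNF-α. Without TNF-α replicates 2 and 3 the log2 fold change was 2.19 (adjusted p 7.92e-05, the single TNF-α library being assumed to vary like the NC libraries), and without TNF-α replicate 1 it was 2.63 (adjusted p 3.64e-06), in a fit in which 79.4% of all tested genes passed. Without NC replicate 2 or 3 the adjusted p was 0.0503 or 0.0515. VEPH1, on the opposite strand, overlapped 3.66% of the exonic length of PTX3 and had a log2 fold change of -0.01 (adjusted p 0.936).

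SDC4 (ENSG00000124145, chromosome 20, 45325288 to 45348424, minus strand) encodes syndecan-4, a heparan sulfate proteoglycan of focal adhesions and a co-receptor for growth factors. Its values were 46.4, 45.3 and 44.9 FPKM under NC and 107, 183 and 167 under TNF-α. The groups did not overlap, and TNF-α replicates 2 and 3 were higher than replicate 1. The log2 fold change was 1.68 (SE 0.23, adjusted p 0.0362). It was 1.21 without TNF-α replicates 2 and 3. Without TNF-α replicate 1 it was 1.92 (adjusted p 6.22e-06), in the fit in which 79.4% of all tested genes passed. Leaving out any of the other 5 libraries raised the adjusted p to between 0.117 and 0.275, with log2 fold changes from 1.53 to 1.70.

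The other 3 syndecans served as relatives from a list. SDC1 had 106 ± 9.13 FPKM in NC and 127 ± 29.8 in TNF-α (log2 fold change 0.23, adjusted p 0.433). SDC2 had 14.4 ± 0.447 and 9.35 ± 0.523 FPKM (log2 fold change -0.57, adjusted p 0.109). SDC3 had 5.94 ± 0.599 and 4.46 ± 0.423 FPKM (log2 fold change -0.35, adjusted p 0.195). None of them passed the threshold. SDC2 and SDC3 were lower under TNF-α without overlap between the groups, as were 15.3% of all tested genes. The difference between SDC4 and the other syndecans was not itself tested.

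TNFAIP2 (ENSG00000185215, chromosome 14, 103123442 to 103137439, plus strand) encodes a protein related to the exocyst subunit EXOC3 that takes part in the formation of membrane nanotubes. It had 31.4, 32.8 and 36.3 FPKM under NC and 68.7, 61.1 and 69.7 under TNF-α. All 3 TNF-α libraries lay close together and above the NC range, replicate 1 included. The log2 fold change was 0.97 (SE 0.14, adjusted p 0.0429), the 80th largest of the 87 genes that rose. It was 1.02 without TNF-α replicates 2 and 3, and 0.94 (adjusted p 6.38e-05) without TNF-α replicate 1, where 79.4% of all tested genes passed. The call was lost in 14 of 22 alternatives, among them when any of the other 5 libraries was left out (adjusted p 0.124 to 0.377), under TPM (log2 fold change 0.48, adjusted p 0.194), quantile normalization (0.55, adjusted p 0.195) and limma-voom (0.72, adjusted p 0.177), and after correcting for GC content and length (0.59, adjusted p 0.163). Relative to the median of all tested genes, TNFAIP2 had 0.90 under TPM, which moved that median to -0.42, 0.55 under quantile normalization and 0.60 with the correction. EXOC3 had 9.10 ± 0.651 FPKM in NC and 13.8 ± 4.01 in TNF-α (log2 fold change 0.51, adjusted p 0.195).

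LGALS3BP (ENSG00000108679, chromosome 17, 78971238 to 78980109, minus strand), which encodes a secreted glycoprotein that binds galectins, was the most highly expressed of the 10 genes. It had 504, 499 and 577 FPKM under NC and 551, 1119 and 1026 under TNF-α. TNF-α replicate 1 lay within the NC range, and only replicates 2 and 3 were above it. Its mean was at the 99.7th percentile of the tested genes in both groups. The log2 fold change was 0.71 (SE 0.32, adjusted p 0.195), which did not pass the threshold. Without TNF-α replicate 1 it was 1.03 (adjusted p 5.63e-05), where 79.4% of all tested genes passed, and without replicates 2 and 3 it was 0.07. Corrected for GC content and length it was 0.14 (adjusted p 0.333), and it was -0.05 (adjusted p 0.745) under quantile normalization. Of its galectin partners, LGALS1 also had TNF-α replicate 1 within the NC range and replicates 2 and 3 above it, with 516, 459 and 505 FPKM in NC and 506, 2345 and 1793 FPKM in TNF-α (log2 fold change 1.38, adjusted p 0.195), and LGALS3 had 8.24 ± 1.02 and 14.5 ± 5.65 FPKM (0.67, adjusted p 0.196).

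**Figure D2:**
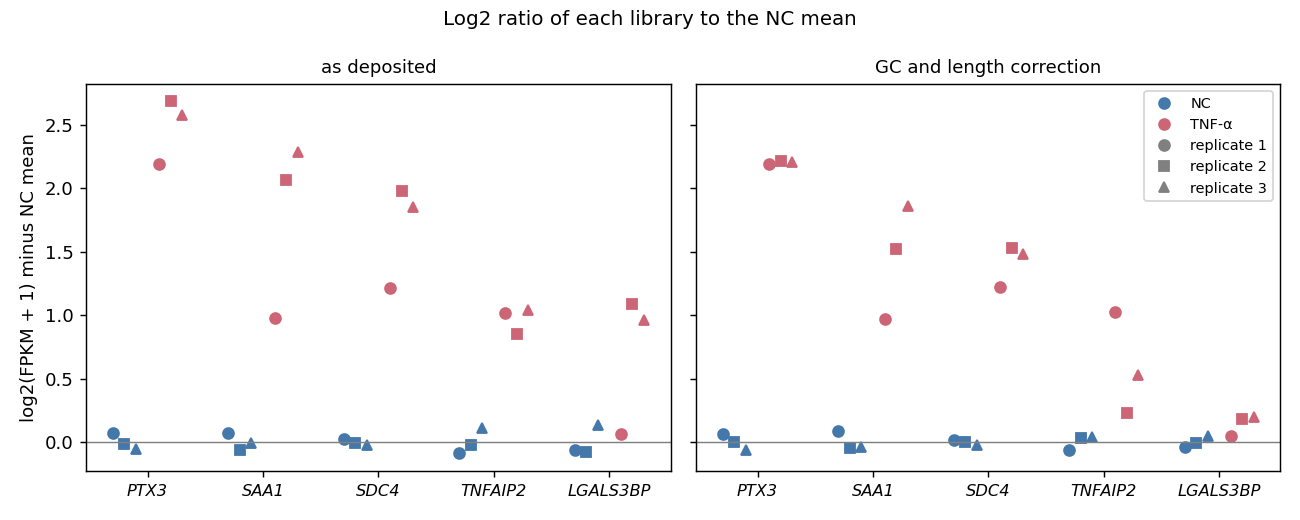
Log2(FPKM + 1) of the 5 tested genes in each library minus the NC mean (vertical axis, no unit), as deposited (left) and after a correction of each library for GC content and gene length (right), with NC in blue, TNF-α in red and a marker shape for each replicate number. PTX3 lies between 2.19 and 2.22 in all 3 TNF-α libraries after the correction, TNFAIP2 falls to 0.23 and 0.53 in TNF-α replicates 2 and 3 but not in replicate 1 (1.03), and LGALS3BP lies between 0.05 and 0.20.

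Because TNF-α replicates 2 and 3 differed in the share of long genes, the log2 ratios to the NC mean were also computed after correction for GC content and gene length. The ratios of PTX3, 2.19, 2.69 and 2.58 in TNF-α replicates 1 to 3 as deposited, became 2.19, 2.22 and 2.21. Those of SDC4 went from 1.21, 1.98 and 1.85 to 1.22, 1.53 and 1.48. Both genes thus stayed above every NC library in all 3 TNF-α libraries, with a smaller spread among them. With the correction, the log2 fold change was 2.21 (adjusted p 0.000242) for PTX3 and 1.41 (adjusted p 0.00368) for SDC4.

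The promoters of the 3 genes that rose are shown with that of LCN2, a known NF-κB target that did not pass 1 FPKM. They are the 250 bases before the annotated RefSeq start (GRCh38.p14), written 5′ to 3′ on the strand of the gene, and were found for 7 of the 10 genes (not SAA1, SAA2 or HP). For PTX3, TNFAIP2 and LCN2 the RefSeq start lies downstream of the gene start given here. Capitals mark matches, on either strand, to the NF-κB consensus or to a C/EBP-like motif, TTNNGNAA.
PTX3, chr3:157436600-157436849, plus strand: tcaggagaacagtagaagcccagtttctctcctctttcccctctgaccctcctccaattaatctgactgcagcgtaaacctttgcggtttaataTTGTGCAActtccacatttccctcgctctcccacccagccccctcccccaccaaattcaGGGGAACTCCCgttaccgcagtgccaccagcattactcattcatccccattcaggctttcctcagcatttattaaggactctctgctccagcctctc
SDC4, chr20:45348425-45348674, minus strand: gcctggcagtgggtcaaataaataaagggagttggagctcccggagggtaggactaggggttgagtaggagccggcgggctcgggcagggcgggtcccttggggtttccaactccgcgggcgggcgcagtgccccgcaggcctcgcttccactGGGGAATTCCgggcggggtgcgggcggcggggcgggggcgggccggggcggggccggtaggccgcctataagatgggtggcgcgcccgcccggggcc
TNFAIP2, chr14:103123211-103123460, plus strand: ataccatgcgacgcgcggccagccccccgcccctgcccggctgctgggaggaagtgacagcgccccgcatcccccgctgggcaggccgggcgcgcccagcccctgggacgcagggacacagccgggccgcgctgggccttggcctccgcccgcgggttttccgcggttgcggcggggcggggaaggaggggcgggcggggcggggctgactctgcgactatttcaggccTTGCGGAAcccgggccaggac
LCN2, chr9:128149203-128149452, plus strand: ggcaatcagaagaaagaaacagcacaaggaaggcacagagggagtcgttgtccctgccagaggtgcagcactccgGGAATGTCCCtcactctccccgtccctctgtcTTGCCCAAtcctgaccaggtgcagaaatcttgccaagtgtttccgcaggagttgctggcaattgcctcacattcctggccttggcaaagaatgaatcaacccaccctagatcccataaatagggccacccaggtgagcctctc

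The NF-κB consensus matched in the windows of PTX3 (positions -97 to -87 from the start, as an overlapping pair on both strands), SDC4 (positions -97 to -88) and LCN2 (positions -175 to -166). It did not match in those of TNFAIP2, LGALS3BP, SERPINA3 or ORM1, and 5.21% of all 35116 promoter windows of the same length held a match. The C/EBP-like motif matched in all of the 7 windows except that of SDC4, beside 33.2% of all windows, and a STAT-like motif, TTCNNNGAA, in none of the 7, beside 6.57% of all windows. These are matches of letters and no measurement of binding, and no match says only that the letters are not in the window.

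SAA1 (ENSG00000173432, chromosome 11, 18266174 to 18269977, plus strand) and SAA2 (ENSG00000134339, chromosome 11, 18239223 to 18248643, minus strand) encode the acute-phase forms of serum amyloid A, apolipoproteins of high-density lipoprotein. SAA1 had 0.139, 0.0383 and 0.0782 FPKM under NC, resting on 4, 1 and 2 reads. It had 1.13, 3.54 and 4.29 under TNF-α, on 29, 73 and 83 reads. The groups did not overlap, and TNF-α replicate 1 was the lowest of its group. Rates here and below are reads over the summed library sizes by which the authors divided. Relative to reads, these sizes were smaller in TNF-α replicates 2 and 3, which raises the ratios of TNF-α to NC. Over the group totals of 7 and 185 reads, the rate was 32.4-fold higher, with an exact 95% interval of 12.5 to 186. Such intervals were computed on halved counts, since even counts outnumbered odd ones among genes with few reads (57.1% to 63.2% even) and a fragment may count as 2 reads, and they cover counting error only.

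On the log2(FPKM + 1) scale, which understates changes at such levels, SAA1 had a log2 fold change of 1.78 (SE 0.34, adjusted p 0.0980) and did not pass the threshold. With a pseudocount of 0.1 it was 3.90 (adjusted p 0.0485) and with limma-voom on the reads 4.48 (adjusted p 0.110). Without TNF-α replicates 2 and 3 it was 0.98. Without TNF-α replicate 1 it was 2.18 (adjusted p 1.05e-05), where 79.4% of all tested genes passed. Corrected for GC content and length it was 1.45 (adjusted p 0.0398).

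SAA2 had 0.0497, 0 and 0.0140 FPKM under NC (4, 0 and 1 reads) and 0.321, 0.156 and 0.185 under TNF-α (23, 9 and 10 reads). The groups did not overlap, and here TNF-α replicate 1 was the highest. The rate ratio was 10.3 (exact 95% interval 3.15 to 113). The exact two-sided permutation p was 0.1, the smallest that 3 against 3 libraries can give. Of all windows of 100 bases in the longest coding transcript of SAA1, 37.2% occur also in transcripts of SAA2 or of SAA2-SAA4, a readthrough gene, and 18.2% of those of SAA2 occur in SAA1 or SAA2-SAA4. How reads were divided between these copies is uncertain. Summed over SAA1 and SAA2, there were 8, 1 and 3 reads under NC and 52, 82 and 93 under TNF-α. SAA4, the constitutive form, had 0 reads in each NC library and 1, 2 and 0 under TNF-α, and SAA2-SAA4 had 0 reads in all 6.

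LCN2 (ENSG00000148346, chromosome 9, 128149071 to 128153455, plus strand) encodes lipocalin-2, which binds bacterial siderophores. It had 6 reads in each NC library (0.104, 0.114 and 0.117 FPKM) and 0, 10 and 12 under TNF-α (0, 0.241 and 0.309 FPKM). The TNF-α values lay on both sides of the NC values. The rate ratio was 1.5, with an exact 95% interval of 0.565 to 4.10, and the exact permutation p was 0.5. For TNF-α replicate 1, 3 reads would correspond to 0.0584 FPKM, below each NC value.

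SERPINA3 (ENSG00000196136, chromosome 14, 94612377 to 94624055, plus strand) encodes α1-antichymotrypsin, a serine protease inhibitor. It had 0, 2 and 2 reads under NC and 10, 0 and 10 under TNF-α, that is at most 0.0124 and 0.0823 FPKM. The groups overlapped at 0 reads. The rate ratio was 6.14 (exact 95% interval 1.31 to 57.6), and the exact permutation p over libraries was 0.4. Exons of the gene AL049839.2 on the same strand overlapped 31.8% of the exonic length of SERPINA3, and AL049839.2 had 0 reads in all 6 libraries. Of the transcript windows of SERPINA3, taken as for SAA1, 55.6% occur also in AL049839.2. How reads from these shared parts were counted is uncertain, and so is the level of SERPINA3.

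HP (ENSG00000257017, chromosome 16, 72054592 to 72061055, plus strand), the gene of the haemoglobin-binding protein haptoglobin, had 2 reads in NC replicate 3 and 8 reads in TNF-α replicate 1, and 0 in the other 4 libraries. The rate ratio was 4.91 (exact 95% interval 0.486 to 242), and the exact permutation p was 1. Its copy HPR had 2, 4 and 0 reads in NC and 0 in each TNF-α library. ORM1 (ENSG00000229314, chromosome 9, 114323056 to 114326475, plus strand), the gene of orosomucoid or α1-acid glycoprotein, had 0 reads in all 6 libraries, and 3 reads would correspond to 0.0921 to 0.137 FPKM. Its copy ORM2, in which 33.7% of such windows of ORM1 also occur, had 1 read in NC replicate 2 and 4 reads in TNF-α replicate 2. A difference in HP or ORM1 was therefore not detectable with so few reads, and how reads shared with a copy were counted is uncertain.

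**Figure D3:**
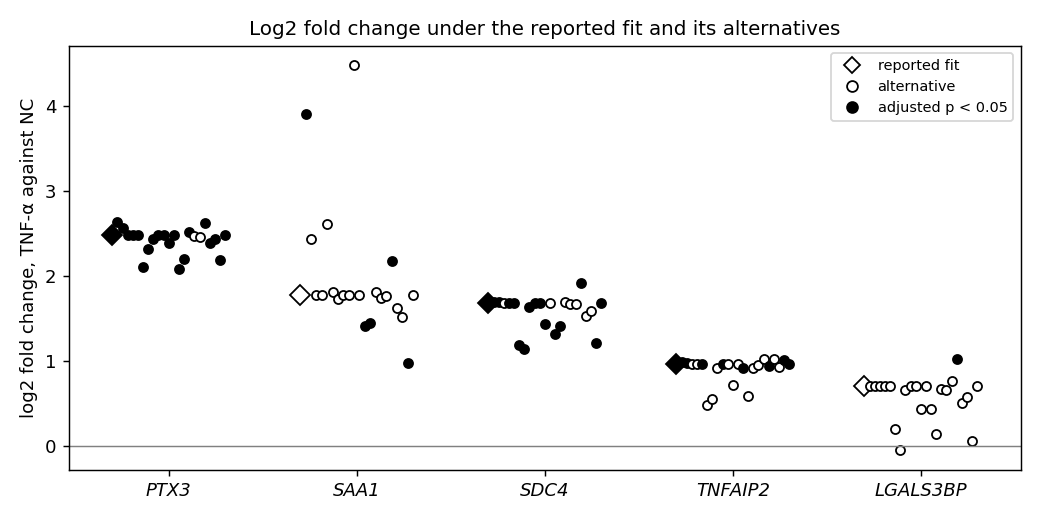
Log2 fold change of the TNF-α group against the NC group (vertical axis) for the 5 tested genes under the reported fit (diamond) and each alternative (circles), filled where the adjusted p was under 0.05. PTX3 stays between 2.09 and 2.64, SAA1 ranges from 0.98 to 4.48, and LGALS3BP ranges from -0.05 to 1.03.

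The wider acute-phase program was then examined with lists of genes, which were chosen with earlier results of these data known. Of 28 other acute-phase plasma proteins, 3 were expressed highly enough to be tested and 1 rose, the complement component C3. Over all genes tested, 0.717% rose. C3 had 1.24, 1.03 and 1.47 FPKM under NC and 9.19, 7.44 and 8.33 under TNF-α, with a log2 fold change of 2.05 (SE 0.14, adjusted p 0.00316). The other 2 were the ferritin subunits, named here after their values were seen. FTH1 had 242 ± 7.06 and 481 ± 174 FPKM (0.91, adjusted p 0.195), and FTL had 1688 ± 12.9 and 3329 ± 1873 FPKM (0.77, adjusted p 0.276). The median of the 3 was 0.91, against 0.04 over all genes tested. C3 lost its call under TPM and without NC replicate 2, and all 3 genes passed without TNF-α replicate 1, as did 79.4% of all tested genes. Of 8 negative acute-phase proteins, such as albumin and transthyretin, none reached the filter, and 3 had 0 reads in all 6 libraries.

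Of 29 reactive astrocyte genes outside the 10, 21 were tested, of which 3 rose and 1 fell. Over all genes tested, 0.717% rose and 0.297% fell. CXCL10, a chemokine of T cells, rose from 7.68 ± 0.603 to 134 ± 27.8 FPKM (log2 fold change 3.94, adjusted p 0.000833). SRGN, the core protein serglycin, rose from 0.849 ± 0.136 to 2.86 ± 0.443 FPKM (1.06, adjusted p 0.0316), and the third was C3, which is in both lists. SRGN was below 1 FPKM in every NC library and was tested only because of its TNF-α values. GFAP, the astrocyte intermediate filament, fell from 8.24 ± 1.19 to 2.19 ± 0.537 FPKM (-1.54, adjusted p 0.0210). The median of the list was 0.54. The count of 4 became 2 without a filter, under TPM, with the length correction and with the replicate block. Without TNF-α replicate 1, 19 genes of this list passed, beside 79.4% of all tested genes, and 1 or 2 passed without any other library (1 without NC replicate 2).

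Of 29 inducers and transcription regulators of acute-phase genes, 21 were tested and 4 rose, beside 0.717% of all genes tested. These were the NF-κB subunits RELB (6.85 ± 1.31 to 93.7 ± 42.5 FPKM, log2 fold change 3.48, adjusted p 0.0185) and NFKB2 (17.2 ± 1.45 to 117 ± 40.2 FPKM, 2.63, adjusted p 0.0173) and the cytokines IL1B (0.627 ± 0.194 to 6.22 ± 1.53 FPKM, 2.13, adjusted p 0.0111) and LIF (23.4 ± 2.89 to 87.3 ± 2.10 FPKM, 1.86, adjusted p 0.00593). IL1B was below 1 FPKM in every NC library and was tested only because of its TNF-α values. The median of the list was 0.70. The count of 4 became 2 without a filter, 7 under quantile normalization and with the length correction, and 1 with the replicate block. None of the 4 passed without NC replicate 1, 2 or 3 or TNF-α replicate 3, 2 genes of the list passed without TNF-α replicate 2, and 17 of the 21 passed without TNF-α replicate 1, beside 79.4% of all tested genes.

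Among 20 receptors and binding partners of the 10 proteins, 12 were tested and none passed with limma, as against 1.01% of all genes tested. At an unadjusted p under 0.05 there were 3, none passed with limma-voom on the reads, and the median was -0.14. Without TNF-α replicate 1, 10 of these 12 passed, beside 79.4% of all tested genes. Of 27 relatives of the 10 genes, 4 were tested, the 3 syndecans and EXOC3. None passed with limma or limma-voom, 2 had an unadjusted p under 0.05, and the median was -0.06. Without TNF-α replicate 1 all 4 passed, again beside 79.4% of all tested genes.

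**Figure D4:**
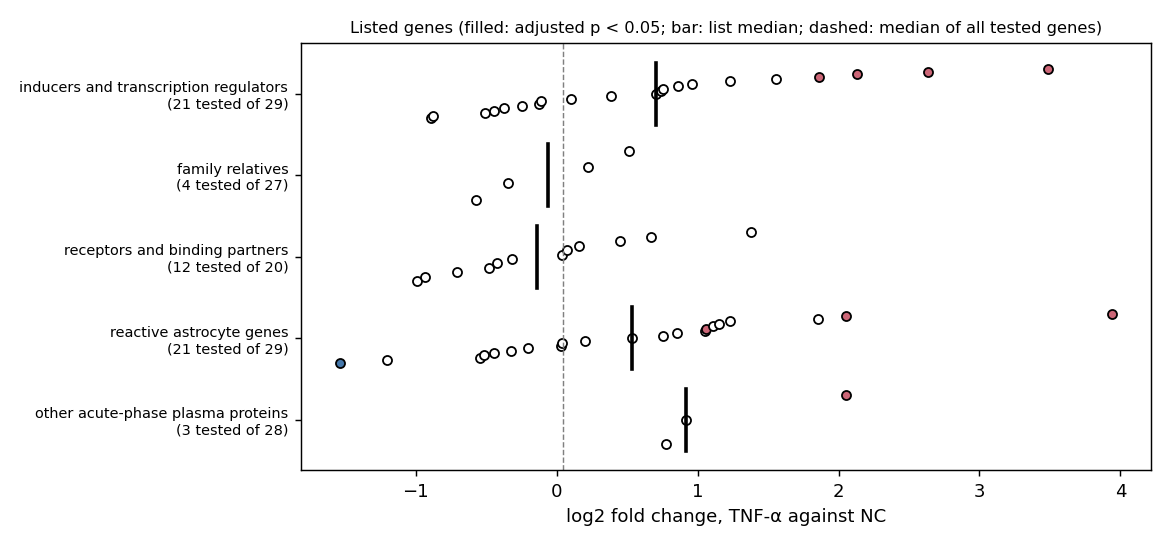
Log2 fold change of the TNF-α group against the NC group (horizontal axis) for the tested genes of each list, filled where the adjusted p was under 0.05, with the list median as a bar and the median of all tested genes (0.04) dashed. The list of negative acute-phase proteins had no tested gene, and filled points lie in the lists of regulators, reactive astrocyte genes and other acute-phase proteins.

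Genes with the most similar pattern over the 6 libraries were sought for the 3 genes that rose, by Pearson's r of log2(FPKM + 1). The libraries form 2 groups, so that any gene that differs between them can reach a high r, and no p is given. For PTX3 they were CD83 (r = 0.999), MPZL1 (0.999) and CCL2 (0.999), with log2 fold changes of 2.29, 0.51 and 5.33. For SDC4 they were STK10 (0.9996), IL32 (0.999) and JUNB (0.999), with 0.45, 3.71 and 2.31, and for TNFAIP2 they were SEMA4B (0.998), SPATA5L1 (0.997) and LMO2 (0.997), with 0.86, 0.73 and 0.69. Among the 10 pairs of the 5 tested genes themselves, r was lowest for TNFAIP2 with LGALS3BP (0.696) and highest for PTX3 with SDC4 (0.988).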

How the data were processed

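Libraries of 6 samples (3 NC, 3 TNF-α, grouped by sample title) were made by poly(A) selection. The authors deposited FPKM per gene, not pooled and not log-transformed. The submitters' processing notes name HISAT2 2.0.5, StringTie 1.3.3b, featureCounts 1.5.0, DESeq2, edgeR and GATK 3.7, and the use of strand was not given in the sources used here. The table holds 6 further columns of per-sample values, not used here. All 58735 genes matched GENCODE 29 (GRCh38) in identifier, name and position, and their deposited lengths equalled the merged exons. Whole reads were recovered from FPKM times length, divided by the smallest step of each library, and 100% of values came out whole (within 0.05). In each library more genes had 2 reads than 1 (2381 against 1485 in NC replicate 1), so a fragment may count as 2 reads, and intervals were computed from halved counts. Genes with FPKM of at least 1 in at least 3 libraries were tested as log2(FPKM + 1) with limma 3.58.1 in R 4.3.3 (eBayes with trend, two-sided, Benjamini-Hochberg adjustment over 12136 genes, threshold 0.05), after a test on simulated data. Genes below the filter got an exact two-sided permutation test. No p-value was adjusted over a list. Named genes were the 10 members, their near-identical copies and overlapping genes, up to 4 genes past the threshold per list with the largest change, and the 3 most similar genes of each of 3 members. GC content came from the longest transcript, and the correction, which used natural splines with 5 degrees of freedom, was chosen after seeing the data. Promoter windows are from RefSeq. The members and lists were chosen with earlier results of these data known. Alternatives were other pseudocounts, filters, scalings, eBayes options, limma-voom, a replicate block, length correction, protein-coding genes alone, and leaving out libraries.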

Additional observations from a re-analysis of the deposited data

How the results depend on the processing

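Of the 10 genes, 3 passed the threshold in the reported fit, against 1 without a filter, 1 with the replicate block and between 0 and 5 when each library in turn was left out (0 without NC replicate 2 or 3, 1 without NC replicate 1 or TNF-α replicate 2 or 3, and 5 without TNF-α replicate 1, where 79.4% of all tested genes passed). Over all genes the count became 58 without a filter, 79 with an FPKM of at least 5, 58 under TPM, 185 with quantile normalization, 77 with limma-voom, 24 with the replicate block, 247 with the GC and length correction, 732 without both TNF-α replicates 2 and 3, and from 10 (without NC replicate 2) to 9630 (without TNF-α replicate 1) when each library was left out. Deviations of same-numbered libraries from their group means were little correlated (r = -0.01, -0.18 and 0.12 for replicates 1 to 3). In the TNF-α group these deviations are shaped by the difference of replicate 1 from replicates 2 and 3. The correlations therefore cannot decide whether the libraries were paired. The median of all genes moved to -0.42 under TPM, -0.21 with limma-voom and 0.15 with an FPKM of at least 5. PTX3 kept its call in 20 of 22 alternatives, SDC4 in 15 and TNFAIP2 in 8, all with the same direction. SAA1 passed in 5 of 21 and kept its direction. LGALS3BP passed in 1 of 22 and reversed in 1, quantile normalization (log2 fold change -0.046). With a pseudocount of 0.1, the 4 members with reads below the filter kept their direction. The causes of these changes were not tested. Low read counts limit SAA2, LCN2, SERPINA3, HP and ORM1, whose values rest on 0 to 23 reads per library.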

Other observations

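SERPINA1, the gene of α1-antitrypsin, is another acute-phase protein below the filter and is named here after its values were seen. It had 0.0169, 0.0124 and 0.0381 FPKM under NC (3, 2 and 6 reads) and 0.203, 0.378 and 0.445 under TNF-α (32, 48 and 53 reads). The groups did not overlap, as they did not in 30.1% of all tested genes in either direction. That share leaves out genes below the filter, such as SERPINA1. Of the same list and also below the filter, LRG1 was higher without overlap, on few reads (0, 2 and 2 under NC, 7, 6 and 11 under TNF-α). A2M (0.195, 0.267 and 0.283 FPKM under NC, 0.161, 0.115 and 0.110 under TNF-α) was lower without overlap. So was VWF, on few reads (7, 8 and 3 under NC, 2, 0 and 0 under TNF-α). NFKBIZ, a nuclear cofactor of NF-κB known to act on LCN2, had 1.84, 2.19 and 2.39 FPKM under NC and 5.61, 2.09 and 2.34 under TNF-α (log2 fold change 0.38, adjusted p 0.344). LCN2 had 0 reads in TNF-α replicate 1, the library with the highest NFKBIZ value. That is a single library, which also differed in composition from TNF-α replicates 2 and 3, and LCN2 had at most 12 reads in any library. A relation between NFKBIZ and LCN2 was not tested, and NFKBIZ was not picked by the rule for named genes given above.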
